A study of Mus musculus with 16 samples.

Results

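The complement system is a cascade of secreted proteins that marks and lyses targets and calls in leukocytes, and 8 of its genes were followed here in mouse quadriceps: *C1qa*, *C1qb*, *C1qc*, *C4b*, *C3*, *C6*, *C7* and *Serping1*. They are 8 of the 41388 genes in the count table and were taken by their symbols. The set was put together around the low *C7* counts seen under tamoxifen, so the comparisons of treated with untreated mice chose it and are described here without a test. The comparisons of genotypes were tested, although they draw on some of the same libraries.

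RNA of quadriceps from C57BL/6 mice aged 36 days was sequenced in 16 libraries, 4 per group: untreated WT and *Mtm1* KO, and each genotype on tamoxifen (WT + TAM, *Mtm1* KO + TAM). *Mtm1* encodes myotubularin, a phosphoinositide phosphatase, and the KO mice, a model of X-linked myotubular myopathy, lacked exon 4 of the gene in every tissue. The age is that of the labels, and the supplement of the study gives it as a day less. WT mice were littermates. Tamoxifen, a ligand of the estrogen receptor, was given in sweetened chow at 40 mg/kg from day 21, and untreated mice ate standard chow, so the drug and the change of chow cannot be told apart. The study used 14 of the 16 libraries and left out those labelled WT replicate 1 and KO replicate 12 without a stated reason. Unless stated otherwise, values below are from these 14, which leaves 3 libraries in each untreated group and 4 in each treated group.

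The classical pathway starts when C1q, built from the chains encoded by *C1qa*, *C1qb* and *C1qc*, binds its target. Its proteases C1r and C1s then cleave C4, encoded in the mouse by *C4b*, and C2, and the enzyme so formed cleaves C3, the step at which all complement pathways meet. C6 and C7 join C5b, C8 and C9 downstream in the membrane attack complex, and C7 gives the growing complex its hold on the membrane. *Serping1* encodes the C1 inhibitor, which blocks C1r and C1s. Most circulating complement is made by the liver, but C1q comes mainly from macrophages, and fibroblast-like cells of many tissues make other components.

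The member on which the results turn, *C7* (ENSMUSG00000079105), lies on the minus strand at chr15:4988762-5063740 (GRCm38, GENCODE vM21). Its 18 exon blocks cover 2676 bases. *C6* (chr15:4727175-4814967, plus strand) is 173.8 kb away, with 1 protein-coding gene, *Mroh2b*, between them. *C1qb*, *C1qc* and *C1qa* sit in a cluster of 18.7 kb on chromosome 4, and *C3* lies at chr17:57203970-57228136. No exon of a member overlapped an exon of another gene. Of the 50-base stretches of *C4b*, 34.6% also occur in its neighbor *C4a*, so reads could be split between these genes, while the other members shared none with any gene.

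Sequence from just upstream of the start of transcription is shown for *C7*, whose counts were lower in every treated library of the tested set than in every untreated one, and for *C3* and *C1qb*, whose treated and untreated counts overlapped. The sequences are RefSeq windows of 250 bases ending at the base before the start (GRCm38.p6, all minus strand), and windows were matched for 5 of the 8 members. Capitals mark the core hexamer of the estrogen response element, AGGTCA or TGACCT on either strand. The positions are chr15:5063774-5064023 for *C7*, chr17:57228137-57228386 for *C3* and chr4:136886201-136886450 for *C1qb*.
C7: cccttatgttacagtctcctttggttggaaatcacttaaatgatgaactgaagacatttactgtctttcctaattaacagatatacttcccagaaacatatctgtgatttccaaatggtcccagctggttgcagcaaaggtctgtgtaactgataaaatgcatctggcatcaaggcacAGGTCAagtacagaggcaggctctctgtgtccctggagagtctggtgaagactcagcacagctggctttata
C3: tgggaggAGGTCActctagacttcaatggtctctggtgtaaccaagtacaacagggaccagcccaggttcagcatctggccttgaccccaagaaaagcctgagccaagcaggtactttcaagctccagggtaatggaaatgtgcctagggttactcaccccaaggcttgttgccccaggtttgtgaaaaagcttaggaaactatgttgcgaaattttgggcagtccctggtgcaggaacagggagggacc
C1qb: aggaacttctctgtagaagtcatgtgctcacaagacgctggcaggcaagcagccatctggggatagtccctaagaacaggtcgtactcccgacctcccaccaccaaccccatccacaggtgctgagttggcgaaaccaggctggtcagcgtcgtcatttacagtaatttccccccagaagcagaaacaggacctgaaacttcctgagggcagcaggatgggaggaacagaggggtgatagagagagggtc
The *C7* window held 1 hexamer, which begins 72 bases upstream of the start. The *C3* window held 1 as well, 243 bases upstream, and the *C1qb* window held 0. The windows of *C6* and *C1qc* held 1 each. The hexamer was present in 14.02% of all 32851 windows of this length, and the palindrome of the full element, with 3 free bases between its arms, was in 0 of the 5 windows and in 0.0639% of all. A match is a stretch of letters and shows no binding.

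Each library held 25116179 to 29847222 counts. *Mtm1* checked the genotype labels, with 341 to 369 raw counts in WT, 282 to 459 in WT + TAM, 63 to 76 in *Mtm1* KO and 53 to 97 in *Mtm1* KO + TAM. The library labelled WT replicate 1 had 74, within the range of the *Mtm1* KO libraries, against its label. *Mtm1* has 13935 exon bases, and this library had lower counts of long genes, as given below. The part of gene length in its *Mtm1* count was not tested. The muscle fiber markers of this library summed to 5214133 normalized counts, within the 3735355 to 5359812 of WT and above the highest *Mtm1* KO library, 2695563. Its 10 most abundant genes took 26.9% of its counts, within the range of WT. Markers of muscle fibers summed to between 2155624 and 5359812 normalized counts per library. Markers of hepatocytes summed to between 0.920 and 84.8, and 2 or 3 of the 6 were at 0 in each group. Counts were normalized by the trimmed mean of M values (TMM) and put on a common scale. Without TMM, scaling by library size alone moved the log2 fold change of the median gene to 0.33 in *Mtm1* KO against WT and to 0.27 in *Mtm1* KO + TAM against WT + TAM.

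In WT muscle the members spanned a wide range of levels, compared here per length as RPKM. *Serping1* had the highest level, 34.5 ± 6.43 RPKM (SD, n = 3), followed by *C1qa* at 23.6 ± 4.30 and *C1qb* at 23.6 ± 1.65, which were within each other's spread. *C3* at 12.3 ± 5.69 and *C1qc* at 11.6 ± 1.90 came next and also overlapped. *C4b* at 3.56 ± 1.49 and *C7* at 2.95 ± 0.999 did not differ beyond their spread. *C6* was close to undetected at 0.0507 ± 0.0665. In *Mtm1* KO + TAM muscle *C7* was at 0.144 ± 0.109 RPKM (SD, n = 4), so that it stood next to *C6* (0.0680 ± 0.0615) rather than next to *C4b* (4.03 ± 0.763).

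*C7* had low counts in every mouse given tamoxifen. In *Mtm1* KO muscle its normalized counts were 127, 52.1 and 73.0 in replicates 9, 10 and 11, and with tamoxifen they were 6.43, 1.66, 11.8 and 19.3 in replicates 13 to 16. The lowest untreated library was above the highest treated library. The mean was 84.1 ± 38.8 (SD, n = 3) without and 9.81 ± 7.58 (SD, n = 4) with tamoxifen, and the fitted log2 fold change was -3.11 ± 0.56 (SE), or 8.63-fold lower. In bulk tissue, fewer cells of a type and less RNA per cell cannot be told apart. In WT muscle the counts were 224, 173 and 309.9 in replicates 2, 3 and 4, and with tamoxifen 9.48, 5.57, 27.8 and 23.0 in replicates 5 to 8. These groups did not overlap either. Their means were 236 ± 69.0 (SD, n = 3) and 16.5 ± 10.6 (SD, n = 4), and the fitted log2 fold change was -3.85 ± 0.45 (SE), or 14.4-fold lower. Ordered from the lowest fitted log2 fold change, *C7* was number 5 of 15062 genes in *Mtm1* KO and number 4 of 14544 in WT. Groups with all treated below all untreated libraries were seen for 3.61% and 6.05% of all genes in these comparisons, and since both chose *C7*, nothing is read from its place among them. The raw counts behind the treated values were few, 2 to 21 in *Mtm1* KO + TAM and 5 to 24 in WT + TAM. The difference between the *C7* effects, *Mtm1* KO minus WT, was 0.75 ± 0.79 (SE) on the log2 scale.

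The libraries that the study left out had low *C7* as well, although both came from untreated mice. The library labelled WT replicate 1 had 17.8 normalized counts (13 raw) and the library labelled KO replicate 12 had 8.90 (9 raw), both inside the range of the treated libraries. *Pgr*, the progesterone receptor and a classical target of the estrogen receptor, separated these libraries from the treated mice: it had 0 raw counts in both, against 39 to 42 in WT + TAM and 23 to 31 in *Mtm1* KO + TAM. *Flrt1*, another gene that was far higher in treated mice, chosen after its values were seen, had 60 and 61 raw counts in them, against 2301 to 2615 in WT + TAM, 352 to 1375 in *Mtm1* KO + TAM and 16 to 51 in the other untreated libraries. With both libraries added, the fitted log2 fold change of *C7* was -2.75 ± 0.75 (SE) in *Mtm1* KO and -3.46 ± 0.76 (SE) in WT, and treated and untreated libraries overlapped. The same 2 libraries differed from the others of their group in a way that followed gene length. Over 11793 genes with known exon length, the median log2 ratio to the rest of the group was 0.38 in the shortest tertile of genes and -0.43 in the longest for WT replicate 1, and 0.15 and -0.17 for KO replicate 12. In the 6 other untreated libraries it stayed between -0.10 and 0.11. They also had the lowest shares of mitochondrial counts, 3.45% and 2.85%, and the highest sums of red blood cell markers, 12041 and 10553 normalized counts against 1847 to 6997 in the other libraries. The part of these differences in the low *C7* counts was not tested.

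**Figure D1:**
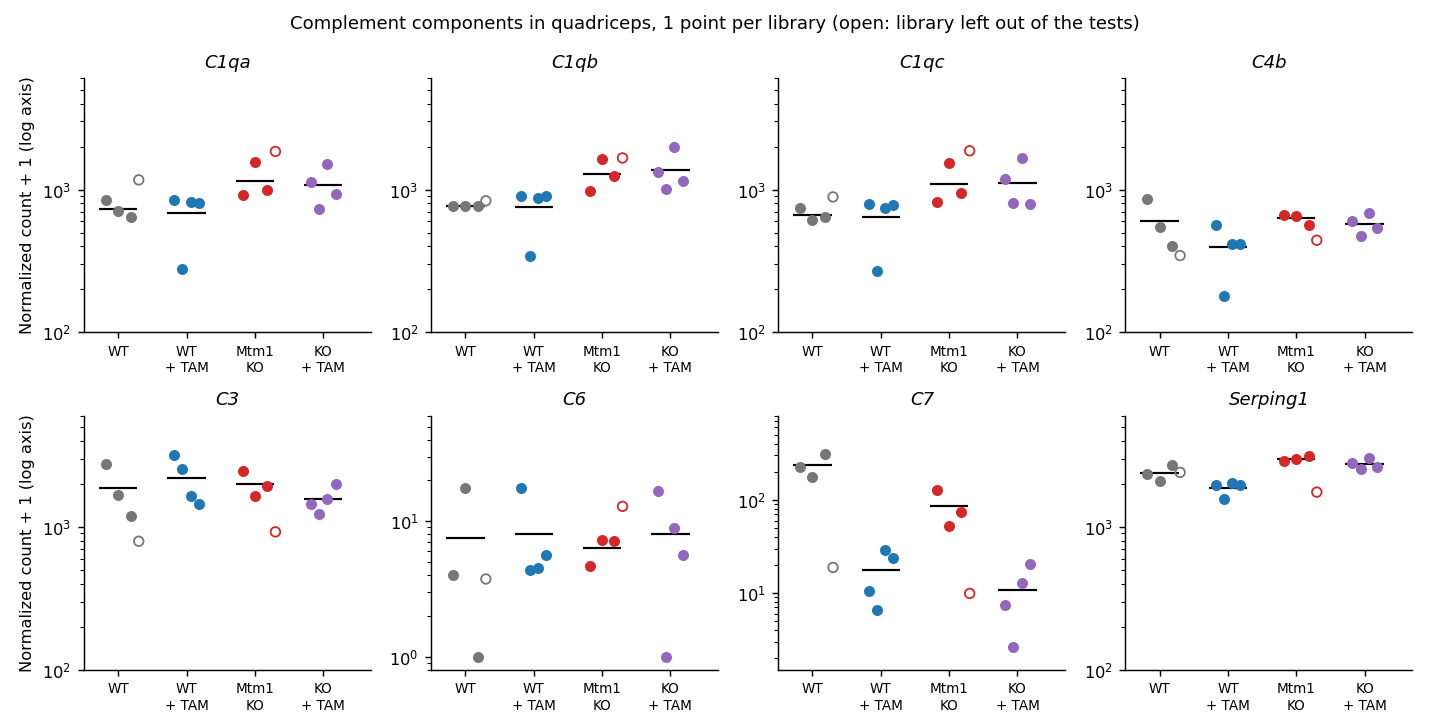
Normalized counts plus 1 of the 8 complement genes on a log axis, 1 point per library, with a line at the group mean over the 14 tested libraries and open points for the 2 libraries left out. *C7* lies between 52.1 and 309.9 in the tested untreated libraries and between 1.66 and 27.8 in the treated ones, while the open points of *C7* lie with the treated libraries.

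The other members had smaller fitted values between treated and untreated mice. In *Mtm1* KO their fitted log2 fold changes on tamoxifen ran from -0.38 ± 0.18 (SE) for *C3* to 0.07 ± 0.24 for *C1qb*, with *C1qa* at -0.13 ± 0.25, *C1qc* at 0.00 ± 0.28, *C4b* at -0.14 ± 0.15 and *Serping1* at -0.14 ± 0.12. Treated and untreated libraries overlapped for each of these 6. In WT they ran from -0.62 ± 0.35 (SE) for *C4b* to 0.22 ± 0.32 for *C3*, with *Serping1* at -0.36 ± 0.14 and the C1q chains between -0.10 and -0.02. *Serping1* was the member other than *C7* whose WT + TAM libraries all lay below the WT libraries. *C6* had 0 to 17 raw counts per library and was under the count filter in each pairwise comparison, so no fold change is given for it. Its count of 0 in WT replicate 4 and in *Mtm1* KO + TAM replicate 14 allows up to 3 counts.

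Within each library *C7* was also set against its neighbors in the cascade. The set was chosen on the low *C7* under tamoxifen, so nothing is read from the difference between treated and untreated mice. The quantity used was log2 of its normalized count (plus 0.5) minus the mean of that log over the other 7 members, so that a factor shared by all members in a library drops out. It was -1.19, -1.59 and 0.06 in the WT libraries and -2.09, -3.74 and -3.02 in *Mtm1* KO. In WT + TAM it was -5.96, -5.40, -3.94 and -4.24, and in *Mtm1* KO + TAM -6.62, -7.27, -5.93 and -4.75. Every treated library was below every untreated library, of either genotype. The group means differed by -3.19 in *Mtm1* KO and -3.98 in WT, with pooled SDs between libraries of 0.96 and 0.91. *C7* made up 2.63 to 4.64% of the raw counts of the 8 members in WT, 0.517 to 1.44% in *Mtm1* KO, 0.107 to 0.424% in WT + TAM and 0.0244 to 0.241% in *Mtm1* KO + TAM. In the 2 libraries left out, labelled WT replicate 1 and KO replicate 12, the log2 difference was -4.47 and -6.12.

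**Figure D2:**
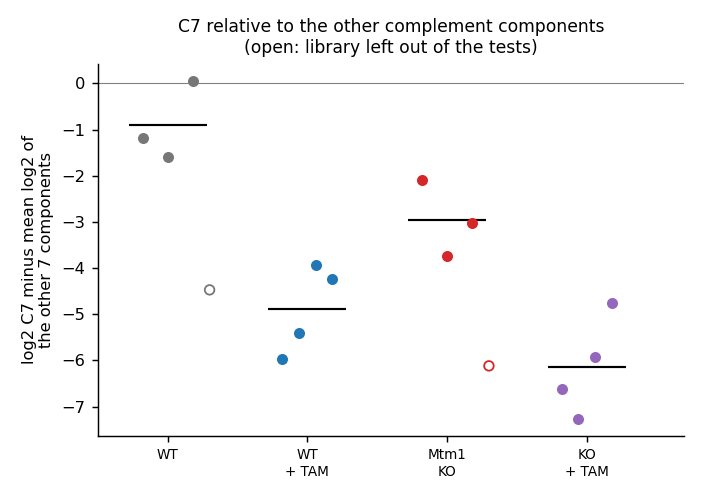
log2 of the normalized *C7* count minus the mean log2 of the other 7 complement genes in each library, with a line at the group mean over the tested libraries and open points for the libraries left out. The tested untreated libraries lie between -3.74 and 0.06 and the treated ones between -7.27 and -3.94. The value of 0.06 is that of WT replicate 4, where *C6* had 0 counts, which raises the difference.

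Genotype was compared next, as *Mtm1* KO against WT, with the edgeR quasi-likelihood test and Benjamini-Hochberg adjustment over all genes, and 0.01 as the threshold of the adjusted p. The C1q chains had fitted values 1.59 to 1.68-fold higher in *Mtm1* KO and *C7* a value 2.82-fold lower, but 0 of the 7 members tested passed, where 3.60% of the 14740 genes tested did. Before adjustment, 5 of the 7 members had a p of at most 0.05, as did 30.1% of all genes. The C1q chains, which varied together, are among the 5. With the threshold at 0.05, which 12.8% of all genes met, *C1qb* and *C7* passed. DESeq2 called these same 2 genes at 0.01, where it called 1678 of the 14740 genes. Limma on log2 RPKM called 0 members, beside 824 of all genes with a pseudocount of 0.1 and 756 with 1.

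The C1q chains varied together from library to library. *C1qa* had 847, 702 and 645 normalized counts in the WT replicates 2 to 4 and 910.3, 1565 and 989 in the *Mtm1* KO replicates 9 to 11. *C1qb* had 765, 767 and 765 in WT and 971, 1649 and 1234 in *Mtm1* KO. *C1qc* had 747, 613 and 643 in WT and 816, 1523 and 938 in *Mtm1* KO. For each chain all *Mtm1* KO libraries were above all WT libraries, with *Mtm1* KO replicate 10 the highest. The log2 fold changes were 0.67 ± 0.22 (SE, adjusted p = 0.0767), 0.75 ± 0.19 (SE, adjusted p = 0.0337) and 0.72 ± 0.23 (SE, adjusted p = 0.0723) for *C1qa*, *C1qb* and *C1qc* in the edgeR test. Without *Mtm1* KO replicate 10 they were 0.38, 0.53 and 0.40. Over the 14 libraries the summed chains ranged from 891 to 5155 normalized counts, while the ratio of *C1qb* to *C1qa* stayed between 0.904 and 1.38 and that of *C1qc* to *C1qa* between 0.857 and 1.10.

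Macrophages are the main source of C1q, and most of their markers had positive values too, although none passed the test in *Mtm1* KO against WT. The 12 macrophage markers, which hold no complement gene, summed to 5465 to 5921 normalized counts in WT, 3544 to 6073 in WT + TAM, 6452 to 8263 in *Mtm1* KO and 6559 to 10397 in *Mtm1* KO + TAM, and all 12 were detected in each group. In *Mtm1* KO against WT 11 of the 12 had positive log2 fold changes, with a median of 0.52 beside 0.02 over all genes tested, and 0 passed at 0.01. *Cd68*, a lysosomal glycoprotein of macrophages, was at 1.39 ± 0.32 (SE, adjusted p = 0.0234 in edgeR). The library with the lowest C1q, WT + TAM replicate 6, also had the lowest macrophage sum of the 14, and that with the highest C1q, *Mtm1* KO + TAM replicate 15, the highest. The libraries left out went the other way. WT replicate 1 had a macrophage sum of 3258, below all 14, and a C1q sum of 2888, above the 2053 to 2358 of WT. KO replicate 12 had a C1q sum of 5379, above all 14, and a macrophage sum of 6286, below the tested *Mtm1* KO libraries. Both libraries left out were shifted towards short genes, as given above, and *C1qa*, *C1qb* and *C1qc* have 1040, 1088 and 1931 exon bases. The parts of gene length and of macrophage number in the C1q values were not tested.

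*C7* also had fewer counts in *Mtm1* KO than in WT muscle. Its normalized counts of 52.1 to 127 in *Mtm1* KO lay below the 173 to 309.9 of WT, with a log2 fold change of -1.50 ± 0.35 (SE, 2.82-fold lower, adjusted p = 0.0249 in the edgeR test), short of the threshold. With the 2 libraries that the study left out it was -1.48 ± 0.78 (SE, adjusted p = 0.312), and over all alternatives other than leaving out a library the adjusted p ranged from 2.48e-04 to 0.312. Markers of fibroblasts and fibro-adipogenic progenitors, which summed to 217636 to 252948 normalized counts in WT and 206502 to 288685 in *Mtm1* KO, overlapped between these groups. In WT + TAM they summed to 142518 to 213278, all below WT, and in *Mtm1* KO + TAM to 199619 to 229371. Their part in the *C7* values was not tested.

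*C3*, *C4b* and *Serping1* showed no change by genotype that passed the test. *C3* had 2749.9, 1683 and 1191 normalized counts in WT and 2454, 1634 and 1944 in *Mtm1* KO, and *C4b* had 854, 548 and 404 in WT and 662, 655 and 565 in *Mtm1* KO. Both spread more in WT than in *Mtm1* KO and overlapped. The log2 fold changes were 0.10 ± 0.28 (SE) for *C3* and 0.06 ± 0.24 (SE) for *C4b*, and leaving out a single library turned their sign. *Serping1* had 2333, 2098 and 2719.8 in WT and 2912, 2984 and 3122 in *Mtm1* KO, with every *Mtm1* KO library higher and a log2 fold change of 0.33 ± 0.14 (SE, adjusted p = 0.141 in edgeR). In all, 4 of the 7 members tested were higher and 1 was lower without overlap, where 18.7% and 17.0% of all genes were. The C1q chains are among the 4. They correlated at r of 0.96 to 0.98 over the 14 libraries, so they are not separate observations.

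**Figure D3:**
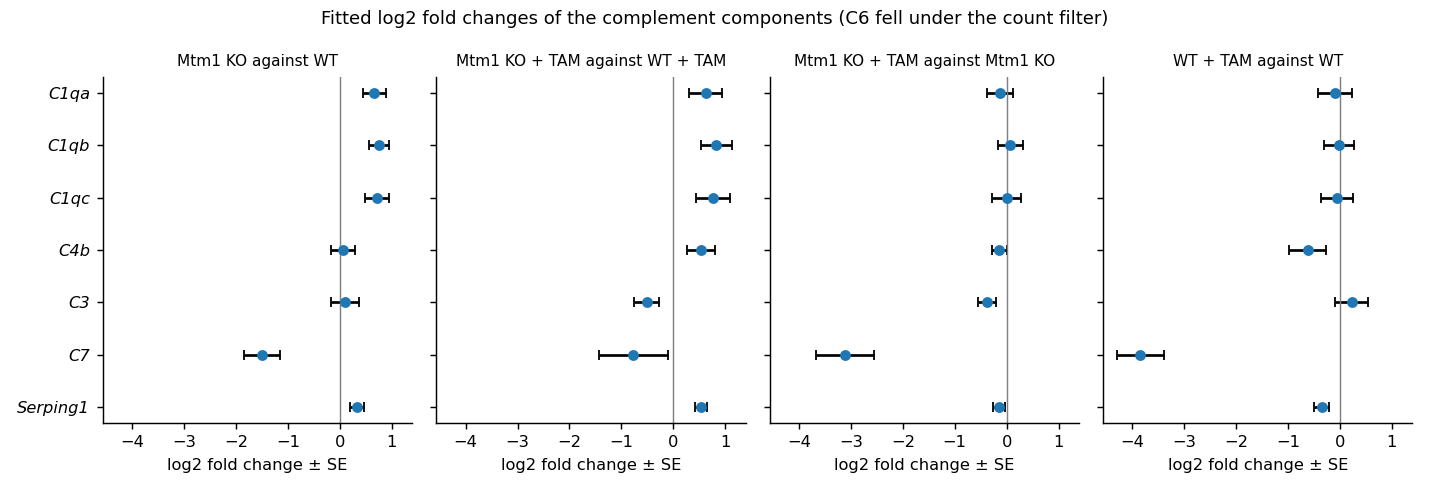
Fitted log2 fold changes with their standard errors of the 7 complement genes that passed the count filter, in 4 comparisons. *C7* lies at -1.50, -0.77, -3.11 and -3.85 from left to right, and the other members between -0.62 and 0.83.

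Among treated mice, *Mtm1* KO + TAM against WT + TAM, 0 of 7 members passed at 0.01, where 6.72% of 14563 genes did, and 4 had a p of at most 0.05 before adjustment, as did 32.3% of all genes. *Serping1* was just short. Its counts were 1949.8, 1569, 2043 and 1949 in WT + TAM and 2816, 2548, 3039 and 2605 in *Mtm1* KO + TAM, with every *Mtm1* KO + TAM library higher and a log2 fold change of 0.53 ± 0.12 (SE, adjusted p = 0.0106 in the edgeR test). DESeq2 and limma on log2 RPKM called it at 0.01. DESeq2 called 1995 of the 14563 genes, and limma 1695 with a pseudocount of 0.1 and 1616 with 1. With the threshold at 0.05, which 17.0% of all genes met, it was the member that passed.

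The C1q chains again had higher means in *Mtm1* KO + TAM. Their log2 fold changes were 0.62 ± 0.31 for *C1qa*, 0.83 ± 0.29 for *C1qb* and 0.76 ± 0.33 for *C1qc* (SE, adjusted p = 0.196, 0.0755 and 0.132 in edgeR). WT + TAM replicate 6 stood apart with 278, 343 and 269.5 normalized counts of the chains, where the other WT + TAM libraries had 739 to 905. Without it the log2 fold changes were 0.36, 0.58 and 0.50. *Mtm1* KO + TAM had 735 to 1501 of *C1qa*, 1015 to 2000.3 of *C1qb* and 795 to 1654 of *C1qc*. *C4b* was at 0.53 ± 0.27 (SE, adjusted p = 0.204) in the edgeR test, with 560.3, 179, 415 and 417 counts in WT + TAM and 599, 474, 688 and 539 in *Mtm1* KO + TAM. Without WT + TAM replicate 6 it was 0.28.

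*C3* went the other way, with 3178, 2563, 1633 and 1444 normalized counts in WT + TAM and 1446, 1232, 1574 and 1996 in *Mtm1* KO + TAM, and a log2 fold change of -0.51 ± 0.23 (SE, adjusted p = 0.153 in edgeR). *C7*, at 5.57 to 27.8 in WT + TAM and 1.66 to 19.3 in *Mtm1* KO + TAM, differed by -0.77 ± 0.66 (SE, adjusted p = 0.457 in edgeR). Of the 7 members, 3 were higher without overlap, *C1qb*, *C1qc* and *Serping1*, where 11.8% of all genes were. *C1qb* and *C1qc* correlated at r of 0.98 over the 14 libraries and are not separate observations.

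The rest of the complement system was read from a list of 47 other symbols in 48 rows of the table, split by role. By RPKM over the 14 libraries the highest were *Cfd* (487), which encodes factor D of the alternative pathway and is made by fat cells, *C1s1* (24.0), a protease of the C1 complex, *Cd59a* (22.6), a membrane blocker of the attack complex, *Clu* (19.5), the soluble regulator clusterin, and *Cr1l* (17.4), a membrane regulator of C3. Of the terminal components in the list, *Hc*, which encodes C5, *C8a*, *C8b* and *C9* were under the filter in each comparison and *C8g* was tested.

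In *Mtm1* KO against WT, 0 of 27 other complement genes tested passed the edgeR test at 0.01, and 7 had a p of at most 0.05 before adjustment, a share close to the 30.1% of all genes. DESeq2 and limma called 0 as well. The median log2 fold change of the list was 0.09, beside 0.02 over all genes tested. Of the 7 receptors tested 5 had positive values, with a median of 0.72, and *Itgam*, *Itgax* and *C5ar1* were higher in all *Mtm1* KO than in all WT libraries. Over the whole list this held for 6 of the 27, a share close to the 18.7% of all genes. Neutrophils carry several of these receptors, and the summed neutrophil markers were 7.92 and 23.1 normalized counts in 2 of the *Mtm1* KO libraries and 2672 in replicate 10, beside 9.44 to 12.6 in WT. Their part was not tested. *Masp1*, a protease of the lectin pathway named after its values were seen, was at -1.67 ± 0.54 (SE, adjusted p = 0.0740 in edgeR), the lowest of the list.

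In *Mtm1* KO + TAM against WT + TAM, 1 of 27 passed, a share below the 6.72% of 14563 genes. The median of the list was 0.15 beside -0.01 over all genes tested. The gene that passed was *C5ar1*, the receptor of the chemoattractant fragment C5a on myeloid cells. It had 114, 65.7, 118 and 72.3 normalized counts in WT + TAM and 279, 212, 360.5 and 191 in *Mtm1* KO + TAM, with all *Mtm1* KO + TAM libraries higher. The log2 fold change was 1.48 ± 0.26 (SE, 2.78-fold, adjusted p = 0.00368 in the edgeR test), with adjusted p from 1.57e-06 to 0.0136 over 17 alternatives. It was past the threshold in all but 3 of them, at 0.0123 without WT + TAM replicate 8, 0.0111 without *Mtm1* KO + TAM replicate 13 and 0.0136 without *Mtm1* KO + TAM replicate 15. Among the 17, the fit to all 16 libraries only repeats the first fit, since the libraries it adds were untreated. Of the 7 receptors tested all had positive log2 fold changes. Myeloid cells carry several of these receptors, and 2 of the 12 macrophage markers were called higher in the same comparison. Of all genes 6.72% were called, in either direction. The median log2 fold change of the 12 markers was 0.84. The macrophage sums, 3544 to 6073 in WT + TAM and 6559 to 10397 in *Mtm1* KO + TAM, did not overlap, nor did the neutrophil sums, 1.16 to 15.6 and 19.1 to 54.4 normalized counts. Their part was not tested. With the threshold at 0.05, 3 of the 27 passed, a share below the 17.0% of all genes. Besides *C5ar1* they were *C1ra*, which encodes C1r, and *Cd55*, a membrane regulator that dissociates the C3-cleaving enzyme. Both were higher in *Mtm1* KO + TAM.

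Between treated and untreated mice, 0 of 28 passed in *Mtm1* KO and 0 of 29 in WT in the edgeR test, where 0% of 15062 and 0.131% of 14544 genes did. Before adjustment 3 and 5 of them had a p of at most 0.05, where 7.55% and 10.7% of all genes did. DESeq2 called 0 in *Mtm1* KO and 1, *Cd55*, in WT, where it called 72 of 15062 and 214 of 14544 genes. *Cd55* had 1196, 1275 and 1169 normalized counts in WT and 553, 749.5, 751 and 807 in WT + TAM, without overlap, and a log2 fold change of -0.77 ± 0.13 (SE, adjusted p = 0.0424 in edgeR), past a threshold of 0.05, which 0.550% of all genes met. The library labelled WT replicate 1 had 502 and that labelled KO replicate 12 had 378, below all the other libraries of the series, as they were low in *C7*. The medians of the list were -0.11 in *Mtm1* KO and -0.24 in WT, beside -0.01 and 0.00 over all genes. The lowest value in the list was -0.64 ± 0.21 for *Vtn* in *Mtm1* KO and -0.93 ± 0.76 for *Itgax* in WT (SE). *C7*, at -3.11 and -3.85, was chosen by these comparisons, so nothing is read from the gap.

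**Figure D4:**
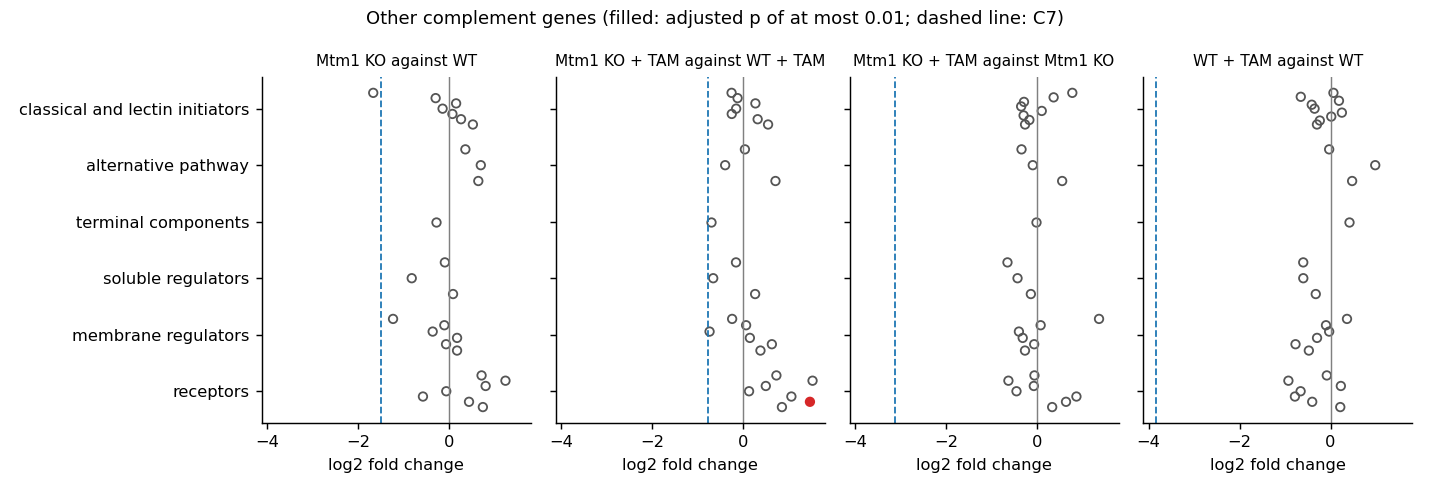
Fitted log2 fold changes of the other complement genes that passed the count filter, by role, in 4 comparisons; filled points passed the edgeR test at 0.01 and the dashed line marks *C7*. *C5ar1*, at 1.48 in *Mtm1* KO + TAM against WT + TAM, is the filled point.

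*Cfd* varied widely within WT and WT + TAM. Its normalized counts were 19265, 1662 and 2165 in WT, 31852, 15637, 7248.5 and 7038 in WT + TAM, 16061, 9985 and 11544 in *Mtm1* KO and 10264.5 to 14539.6 in *Mtm1* KO + TAM. Fat cell markers summed to 6091 to 32841 in WT and 14108 to 52599.6 in WT + TAM, and their part in the *Cfd* values was not tested. In *Mtm1* KO against WT the log2 fold change was 0.70 ± 0.78 (SE, adjusted p = 0.590 in edgeR), and it rested on WT replicate 2, without which it was 2.70 ± 0.26 (SE, adjusted p = 0.00166) and passed. *Clu* had log2 fold changes of -0.82 ± 0.33 and -0.65 ± 0.22 between genotypes, without and with tamoxifen, and of -0.42 ± 0.29 and -0.60 ± 0.24 on tamoxifen in *Mtm1* KO and in WT (SE), and passed in none of the 4 comparisons. *Cr1l*, *Cd59a* and *C1s1* had log2 fold changes between -0.31 and 0.33 in these comparisons and passed in none.

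The genes whose pattern over the 14 libraries was most like that of *C7* were picked by Pearson's r of log2 CPM, among 11844 genes with a mean of at least 50 counts. They were *Lynx1* (r = 0.92), a modulator of nicotinic acetylcholine receptors, *Prps2* (0.92), a phosphoribosyl pyrophosphate synthetase, *Ldhd* (0.92), a D-lactate dehydrogenase, *Col24a1* (0.91), a fibrillar collagen, and *Cxcl14* (0.89), a chemokine. The other members had r between -0.10 for *C6* and 0.36 for *C4b*. The libraries share their group, and after subtraction of the group means r was 0.73, 0.73, 0.62, 0.28 and 0.04 for the 5 genes in this order. The size of their differences was smaller than that of *C7*: *Cxcl14* had 2547 ± 208 normalized counts in WT, 1247 ± 48.5 in WT + TAM, 1739 ± 80.8 in *Mtm1* KO and 1077 ± 196 in *Mtm1* KO + TAM (SD, n = 3, 4, 3 and 4). *Col24a1* had 176 ± 11.96, 87.2 ± 15.9, 119 ± 1.22 and 66.6 ± 9.35 in the same order. For all 5 genes the order of the group means was that of *C7*, from the highest WT, *Mtm1* KO, WT + TAM and then *Mtm1* KO + TAM. They were picked for their likeness to *C7* over these libraries, so nothing is read from this order. Over all 16 libraries 2 of the 5, *Prps2* (r = 0.88) and *Col24a1* (0.86), were again among the 5 most like *C7*.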

How the data were processed

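RNA-seq of mouse quadriceps gave 2 deposited tables for 16 libraries. The authors' raw counts are whole numbers of reads per gene, from STAR alignment to GRCm38 and HTSeq counting, with no scaling, and the submitters' processing notes name STAR 2.5.0c, bcl2fastq 2.17 and Cufflinks 2.2.1. The authors also deposited RPKM, these counts scaled to gene length and library size. Comparisons of level between genes rest on gene lengths that, like the annotation, counting mode and strand setting, were not stated.

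The 14 libraries of the study were compared in pairs of groups on raw counts, with R 4.3.3 and edgeR 4.0.16 (TMM, filterByExpr with a minimum count of 10 and a minimum total of 15, quasi-likelihood test, Benjamini-Hochberg adjustment over all genes tested, threshold 0.01). Tamoxifen contrasts of the members are given with their SE and no p, since they chose the members. SD is between libraries. Each library is taken as 1 mouse, as the study's methods say of its replicates. Libraries held 25116179 to 29847222 counts, which leaves *C6* and treated *C7* near the limit of detection.

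The members, the list of other complement genes, the marker lists and the tests were chosen with earlier results of these data known. Named were the members, other complement genes called in any pairwise comparison, the 5 highest of them by RPKM, the 5 genes most like *C7* and *Mtm1*. *C1ra*, *Cd55*, *Masp1*, *Vtn*, *Itgam*, *Itgax*, *Pgr*, *Flrt1*, *Cd68* and the terminal genes were named outside this rule. Marker lists were written by hand for macrophages, fibroblasts, tenocytes, endothelial, mural, fat, red blood and muscle cells, hepatocytes, neutrophils and the interferon response.

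Alternatives were DESeq2 1.42.0, limma 3.58.1 on log2(RPKM + 0.1) and log2(RPKM + 1), RLE and library size normalization, other filters, 1 fit of all 4 groups, a threshold of 0.05, all 16 libraries and each library left out. The scripts were tested on simulated data.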

Additional observations from a re-analysis of the deposited data

Results flagged for a closer look

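Each group of 4 libraries was searched for a library whose gap to the nearest of the others exceeded Dixon's critical value for the range of the group, for the members and the other complement genes with a mean of at least 10 counts. Chance gives about 1 in 20 such groups, and 5 of 69 were found. The groups are not independent, since the C1q chains, flagged in the same library, correlated at r of 0.96 to 0.98 over the 14 libraries. WT + TAM replicate 6 stood below the other WT + TAM libraries for all the C1q chains, with 278 normalized counts of *C1qa* (the others 804 to 841), 343 of *C1qb* (876 to 905) and 269.5 of *C1qc* (739 to 792). *Colec11*, a lectin that starts the lectin pathway, had 18.9 in WT + TAM replicate 5, where the others had 32.1 to 34.5. *Cfb*, which encodes factor B of the alternative pathway, had 44.0 in WT + TAM replicate 7, where the others had 16.6 to 20.7.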

How the results depend on the processing

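No paired analysis was possible because the groups share no replicate number in the labels. Among the members, *Mtm1* KO against WT gave 0 calls, but 1 with library size only (*C1qb*) and 2 with no filter, with DESeq2 and at 0.05 (*C1qb* and *C7*). *Mtm1* KO + TAM against WT + TAM gave 0, but 1 (*Serping1*) with library size only, no filter, DESeq2, limma with either pseudocount, 1 fit of all 4 groups and at 0.05. Leaving out a library gave 0 to 0 calls in both. Of all 14740 genes in *Mtm1* KO against WT, the edgeR test called 531 at 0.01, library size only 1163 and DESeq2 1678. No filter called 1096 of 22672. In *Mtm1* KO + TAM against WT + TAM the edgeR test called 979 of 14563, library size only 1874 and DESeq2 1995. No filter called 1243 of 22907, and 1 fit of all 4 groups 1325 of 15556. Among the other complement genes, 0 in *Mtm1* KO against WT became 0 to 1 (*Cfd*, without WT replicate 2) on leaving out a library. The 1 called in *Mtm1* KO + TAM against WT + TAM became 4 with library size only and with log2(RPKM + 0.1), 3 with DESeq2, log2(RPKM + 1) and at 0.05, 2 with no filter and 0 to 2 on leaving out a library. In WT + TAM against WT, 0 became 1 with DESeq2 and at 0.05, and 0 to 0 on leaving out a library. *Mtm1* KO on tamoxifen against untreated *Mtm1* KO kept 0 calls throughout. The causes were not tested.

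The log2 fold change of *C7* on tamoxifen was -0.97 in *Mtm1* KO and -1.69 in WT on log2(RPKM + 1), where the pseudocount is above the treated level, and between -3.64 and -2.69 and between -4.22 and -3.55 on leaving out a library. *C7* minus the other 7 members gave -0.84 and -1.54 on log2(RPKM + 1), -2.40 and -3.09 with all 16 libraries, -3.66 to -2.76 and -4.32 to -3.49 on leaving out a library and, in an alternative chosen after seeing the data, -3.24 and -3.81 without *C6*. The difference of the *C7* effects was 0.22 to 1.16 on leaving out a library. By genotype, on leaving out a library *C3* ran from -0.13 to 0.49 and *C4b* from -0.15 to 0.40. *C3* turned to -0.13 without WT replicate 4 and -0.05 without KO replicate 9, and *C4b* to -0.15 without WT replicate 4 and -0.01 without WT replicate 3.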

Other observations

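Of the 10 genes of the interferon response, all 10 had negative log2 fold changes in *Mtm1* KO + TAM against *Mtm1* KO, with a median of -0.42, and all 10 had positive ones in *Mtm1* KO against WT, with a median of 0.28. Both comparisons use the same *Mtm1* KO libraries, so the opposite signs are not separate observations. The 10 genes summed to 2636, 3461 and 1893 normalized counts in *Mtm1* KO replicates 9, 10 and 11 and to 1685 to 2471 in WT. None of the 10 passed the edgeR test at 0.01 in any of the 4 comparisons. All 6 endothelial markers had negative values on tamoxifen, with medians of -0.32 in *Mtm1* KO and -0.48 in WT, and 0 passed. Of the 6 fat cell markers, 6 were positive in WT + TAM against WT and 6 negative in *Mtm1* KO + TAM against WT + TAM, with medians of 0.75 and -0.63, and 0 passed. These comparisons share the WT + TAM libraries, where the markers summed to 52599.6, 38402, 14108 and 14385 normalized counts in replicates 5 to 8.

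Among the remaining lists, 1 of 6 tenocyte markers was called higher in *Mtm1* KO in each genotype comparison. Of all genes tested, 3.60% were called in *Mtm1* KO against WT and 6.72% in *Mtm1* KO + TAM against WT + TAM. Of 6 muscle fiber markers, 1 was called higher in *Mtm1* KO against WT, and 1 higher and 2 lower in *Mtm1* KO + TAM against WT + TAM. Macrophage markers had 2 of 12 called higher in *Mtm1* KO + TAM against WT + TAM. Of the mural, fibroblast and red blood cell markers 0 were called in any of the 4 comparisons. Hepatocyte and neutrophil markers had at most 2 genes above the count filter per comparison, and 1 of the former was called lower in *Mtm1* KO against WT.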
